A study of Homo sapiens with 6 samples.

Results

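Lysine methyltransferases and lysine demethylases are the enzymes that place and remove methyl groups on histone lysines, and their mRNAs were followed here in cells labelled as a myeloma line and given a virus against PRMT5. A gene was taken as a member where its symbol was KMT or KDM with a number and letter, or SETD with a number or letter, or was EZH1, EZH2, SETDB1, SETDB2, SUV39H1, SUV39H2, DOT1L, NSD1 or NSD3. The rule found 44 members among 18132 measured genes, 26 methyltransferases and related SETD genes and 18 demethylases. Each gene was represented by its brightest probe set, a group of short oligonucleotides read as 1 value, and all levels are log2 signals. NSD2, EHMT1, EHMT2 and KDM8 belong to the same enzyme classes but lie outside the rule.

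The PRMT5_down group held 3 arrays of cells labelled NCI-H929 and carrying a lentivirus directed against PRMT5, and the control group held 3 arrays of cells labelled NCI-H929 with a control lentivirus. NCI-H929 is a human multiple myeloma line, a plasma cell tumour line with a translocation that activates FGFR3 and NSD2. The titles call both viruses sponges, the treatment text names a PRMT5 short hairpin RNA in pLKO.1 and puromycin selection and calls the comparison cells normal, and the design text speaks of sorting. Both groups came from the 1 line and were collected at the same time, and each carries replicate numbers 1, 2 and 3. The labels do not tell whether the replicates came from separate cultures, so every p reflects the scatter of these 6 arrays only, and that scatter may be technical.

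Histone lysine methylation is written mainly by proteins with a SET domain, which take the methyl group from S-adenosylmethionine, and by DOT1L, which lacks that domain. It is erased by the flavin-dependent KDM1 enzymes and by the JmjC proteins, which need iron and 2-oxoglutarate. Methylation of H3K4, H3K36 and H3K79 accompanies transcribed genes, while methylation of H3K9 and H3K27 accompanies silent chromatin. In blood cells, KMT2A rearrangements drive leukaemia, EZH2 is mutated in B cell lymphoma, KDM6A is often lost in myeloma, and KDM1A works with GFI1B in red cell precursors. PRMT5 acts on arginines instead, and its marks on histones H3 and H4 lie on the same tails.

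PRMT5 itself had signals of 8.63, 9.65 and 9.37 in PRMT5_down replicates 1, 2 and 3, against 9.93, 10.35 and 10.30 in control replicates 1, 2 and 3. Its groups did not overlap, and its difference of -0.98 (SE 0.28) did not pass limma over all genes (adjusted p = 1 as planned and 0.21 with the replicate block). It did pass with the block when the dimmer 50% of genes were left out (adjusted p = 0.039) or the variance was modelled with trend and robust settings (adjusted p = 0.029). The array medians ran from 5.29 to 5.32, and background, set by olfactory receptor genes, from 4.89 to 5.01. The cell label was checked against markers. Of 14 plasma cell markers 6 were above background on all 6 arrays, namely XBP1, NSD2, FGFR3, PRDM1, FCRL5 and SDC1. Of these, SDC1 at 4.99 to 5.47 and FCRL5 at 5.37 to 5.63 lay near background. FGFR3 and NSD2 are the genes of the translocation named above. Another 7 were above background on none, among them the defining genes IRF4, CD38, TNFRSF17, MZB1 and POU2AF1. All 7 erythroid markers with a probe set of their own were above background on all 6 arrays, and their summed linear signal was 7055 to 8743 in PRMT5_down and 5614 to 6680 in control. The absent plasma cell markers and the erythroid signals go against the NCI-H929 label. FGFR3 and NSD2 were above background, but no other line was measured, so whether the translocation raised them cannot be told. The identity of the cells is therefore in doubt on all 6 arrays, and the line is named here as a label only. A change in the share of cells of a kind and a change in RNA per cell cannot be told apart in such bulk RNA. The actin control probe sets, whose 3′ minus 5′ signal grows as RNA is shortened, gave 1.22, 1.02 and 0.84 in PRMT5_down replicates 1, 2 and 3 and 1.09, 1.02 and 0.73 in control replicates 1, 2 and 3. The same measure on the GAPDH control probe sets was 0.12, 0.06 and 0.11 in PRMT5_down and 0.14, 0.10 and 0.10 in control.

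Nearly every member was expressed, and none passed the test between the groups. Background was exceeded on every array by 42 of the 44, against 56.3% of all genes, and on no array by KDM4E and KDM5D. At a limma adjusted p under 0.05, 0 of 44 members were called, beside 0% of all genes. At an unadjusted p under 0.05 the planned fit listed 0 members, beside 0.822% of all genes (0.331% higher and 0.491% lower). With the replicate number as a block, 0 members were again called (0% of all genes), and 4 had an unadjusted p under 0.05. The median SE of the members was 0.18 in the planned fit, whose SE is given below unless stated, and 0.091 with the block. Those 4 were KMT2C, KMT2A, NSD3 and NSD1, all higher in PRMT5_down, beside 4.44% of all genes in that direction, and 0 members lay on the lower side, beside 3.81% of all genes. Two-sided exact permutation over 3 arrays against 3 cannot go below p = 0.1.

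**Figure D1:**
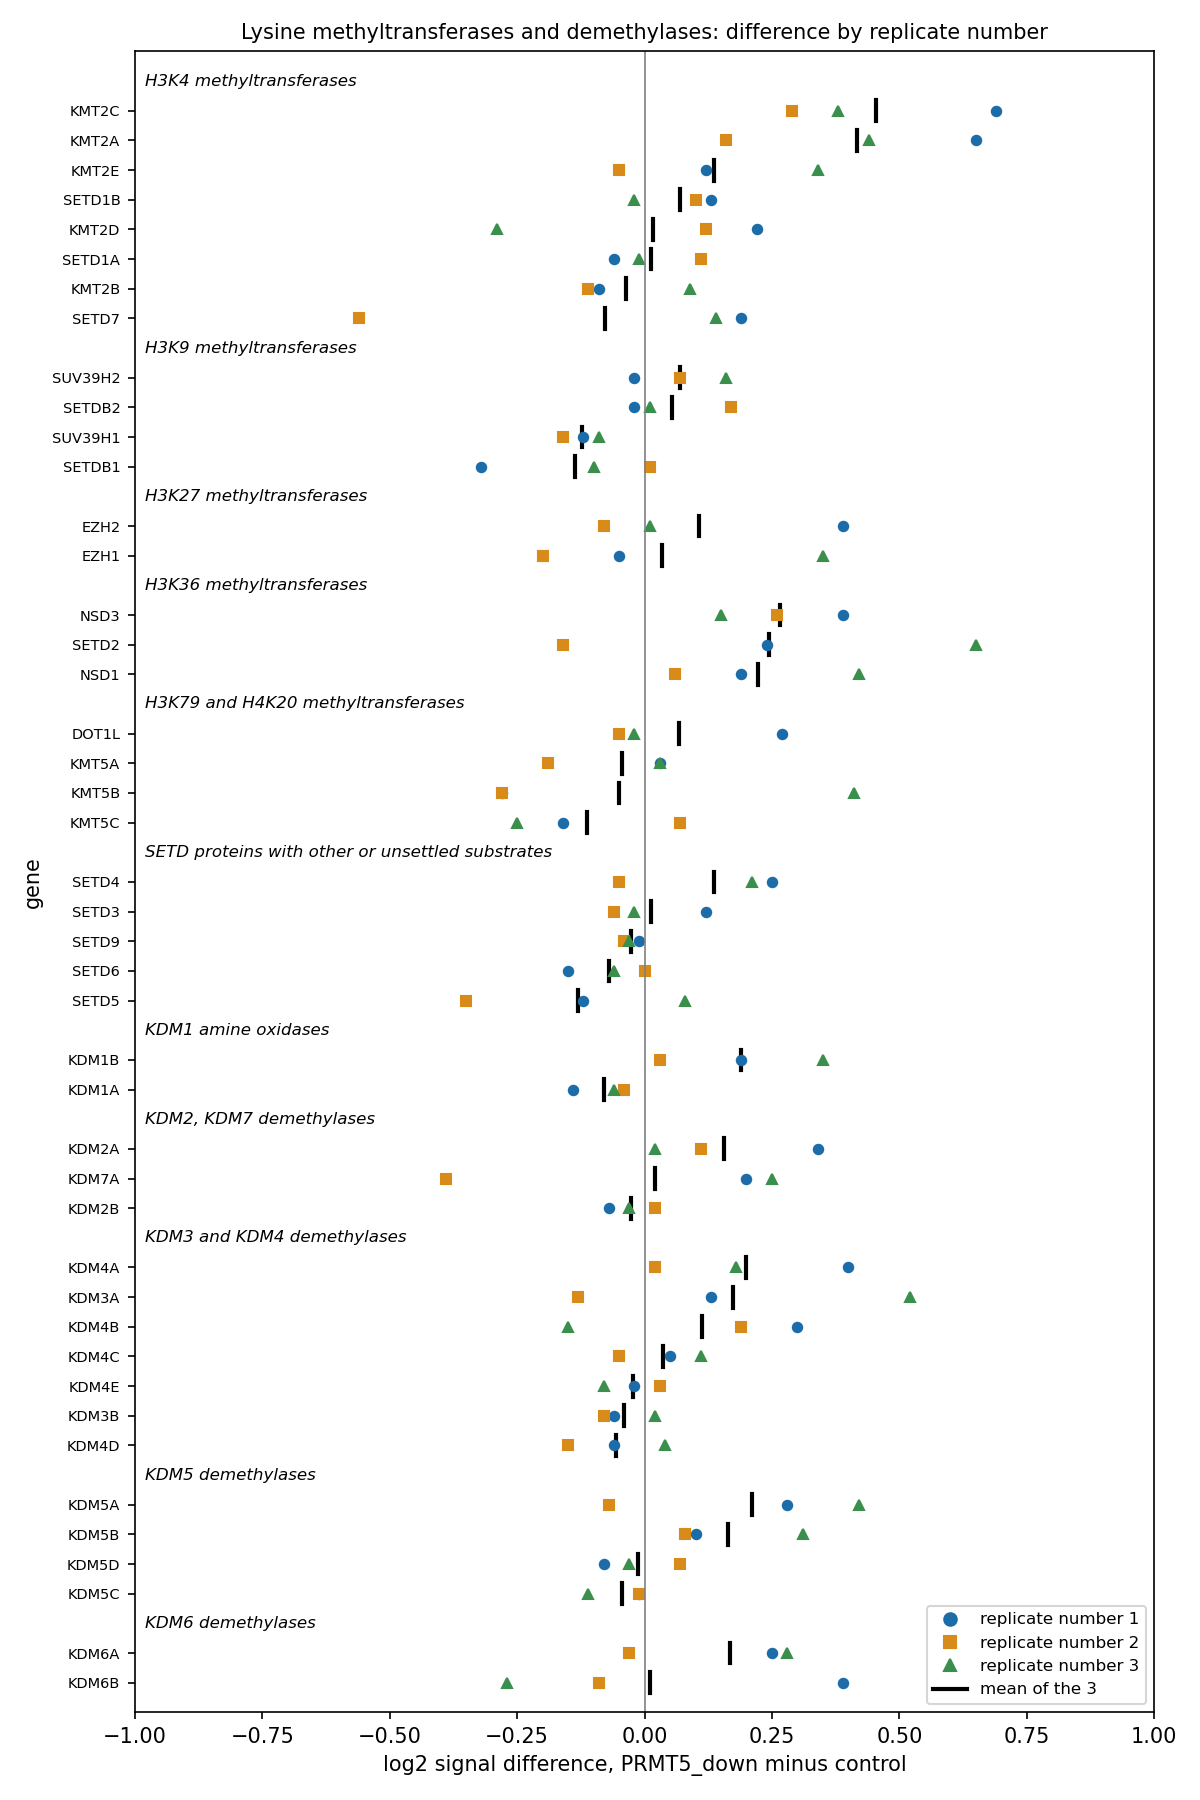
Differences in log2 signal, PRMT5_down minus control, for the 44 genes (rows, grouped by the mark they act on), with a point for each replicate number and a black bar for the mean of the 3. KMT2A and KMT2C stand farthest to the right with all 3 points above 0, while most other genes have points on both sides of 0 and replicate number 2 often lies left of the others.

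The KMT2 proteins are the catalytic subunits of the COMPASS-type complexes that methylate H3K4, and KMT2A and KMT2C had the highest mean differences of all members. KMT2C, which monomethylates H3K4 at enhancers, had signals of 8.89, 8.45 and 7.90 in PRMT5_down replicates 1, 2 and 3, against 8.20, 8.16 and 7.52 in control replicates 1, 2 and 3. It was higher in each replicate number, by 0.69, 0.29 and 0.38, yet the groups overlapped, since PRMT5_down replicate 3 lay below control replicates 1 and 2. Its mean was 8.41 ± 0.50 in PRMT5_down and 7.96 ± 0.38 in control (SD, n = 3 each), a difference of 0.45 (SE 0.30) with a limma adjusted p of 1 as planned and 0.46 with the replicate block (unadjusted p = 0.0019). The SE was 0.30 without the block and 0.10 with it. Among all 18132 genes, 82 had a higher mean difference than KMT2C.

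KMT2A, the founding mixed lineage leukaemia gene, had signals of 10.06, 9.39 and 9.24 in PRMT5_down replicates 1, 2 and 3, against 9.41, 9.23 and 8.80 in control replicates 1, 2 and 3. Here too PRMT5_down was the higher array in every replicate number, by 0.65, 0.16 and 0.44, and replicate 1 was the highest array in both groups. The means of 9.56 ± 0.44 in PRMT5_down and 9.15 ± 0.31 in control (SD, n = 3 each) differed by 0.42 (SE 0.26), with a limma adjusted p of 1 as planned and 0.52 with the replicate block (unadjusted p = 0.0045). Without PRMT5_down replicate 1 the differences were 0.17 for KMT2A and 0.22 for KMT2C. Without control replicate 3 they were 0.24 for KMT2A and 0.23 for KMT2C, and without PRMT5_down replicate 3 they were 0.58 for KMT2A and 0.71 for KMT2C. In replicate numbers 1, 2 and 3 the actin 3′ minus 5′ signal differed between PRMT5_down and control by 0.13, 0.00 and 0.11, that of GAPDH by -0.02, -0.04 and 0.01, and the mean log2 signal of the 7 erythroid markers by 0.53, 0.43 and 0.70. PRMT5 itself differed by -1.30, -0.70 and -0.93 in the same numbers. The part of any of these in the KMT2A and KMT2C differences was not tested.

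The sequences just before the start sites of KMT2A and KMT2C are shown because these members had the highest mean differences and both were higher in every replicate number. They are the 250 bases upstream of the RefSeq start in GRCh38.p14, written 5′ to 3′ on the gene's strand, at chr11:118436242-118436491 on the plus strand for KMT2A and chr7:152436004-152436253 on the minus strand for KMT2C. Capitals mark the GC box GGGCGG on either strand.
KMT2A: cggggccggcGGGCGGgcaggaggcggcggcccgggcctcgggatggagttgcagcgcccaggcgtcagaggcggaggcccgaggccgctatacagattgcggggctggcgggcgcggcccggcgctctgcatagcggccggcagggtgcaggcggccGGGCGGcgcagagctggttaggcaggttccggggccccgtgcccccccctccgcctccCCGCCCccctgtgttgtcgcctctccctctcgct
KMT2C: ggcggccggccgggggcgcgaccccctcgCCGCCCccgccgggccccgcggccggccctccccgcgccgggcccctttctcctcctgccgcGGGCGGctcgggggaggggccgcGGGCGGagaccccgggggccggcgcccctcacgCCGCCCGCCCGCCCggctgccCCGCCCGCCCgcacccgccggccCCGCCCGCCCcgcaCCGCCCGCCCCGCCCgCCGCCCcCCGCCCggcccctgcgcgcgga
The KMT2A stretch was 78.4% G or C with 31 CpG dinucleotides, and that of KMT2C 92.0% with 48, against medians of 58.0% and 11 over 35116 RefSeq promoters of the same length. Overlapping matches counted, the GC box occurred 3 times in KMT2A and 15 times in KMT2C, and 42.6% of all these promoters held at least 1. Other motifs were searched on both strands and found in neither stretch. The CCAAT box, written as its own name, was held by 32.0% of all promoters, the TATA box, written TATAAA, by 10.7%, a GATA motif, written AGATAA, by 9.17%, and an E2F-type motif, written TTTGGCGC, by 0.55%. These matches describe letters only, as the arrays carry no measurement of binding.

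The other H3K4 genes differed less. KMT2E, a reader of H3K4 methylation with little or no catalytic activity of its own, had signals of 8.55, 8.46 and 8.33 in PRMT5_down replicates 1, 2 and 3, against 8.43, 8.51 and 7.99 in control replicates 1, 2 and 3. It was higher in 2 of the 3 replicate numbers, with a difference of 0.14 (SE 0.16). KMT2D, the close relative of KMT2C, differed by 0.02 (SE 0.22) and KMT2B by -0.04 (SE 0.25), and both had within-number differences on either side of 0. SETD1A and SETD1B, the subunits that supply most H3K4 trimethylation, differed by 0.01 (SE 0.21) and 0.07 (SE 0.15). SETD7, a monomethyltransferase of H3K4 and of many other proteins, was lower by 0.56 in replicate number 2 and higher in numbers 1 and 3, by 0.19 and 0.14. In all, 6 of the 8 H3K4 genes were higher and 2 lower, with 0 called and a median of 0.04, beside a median of -0.02 over all genes.

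**Figure D2:**
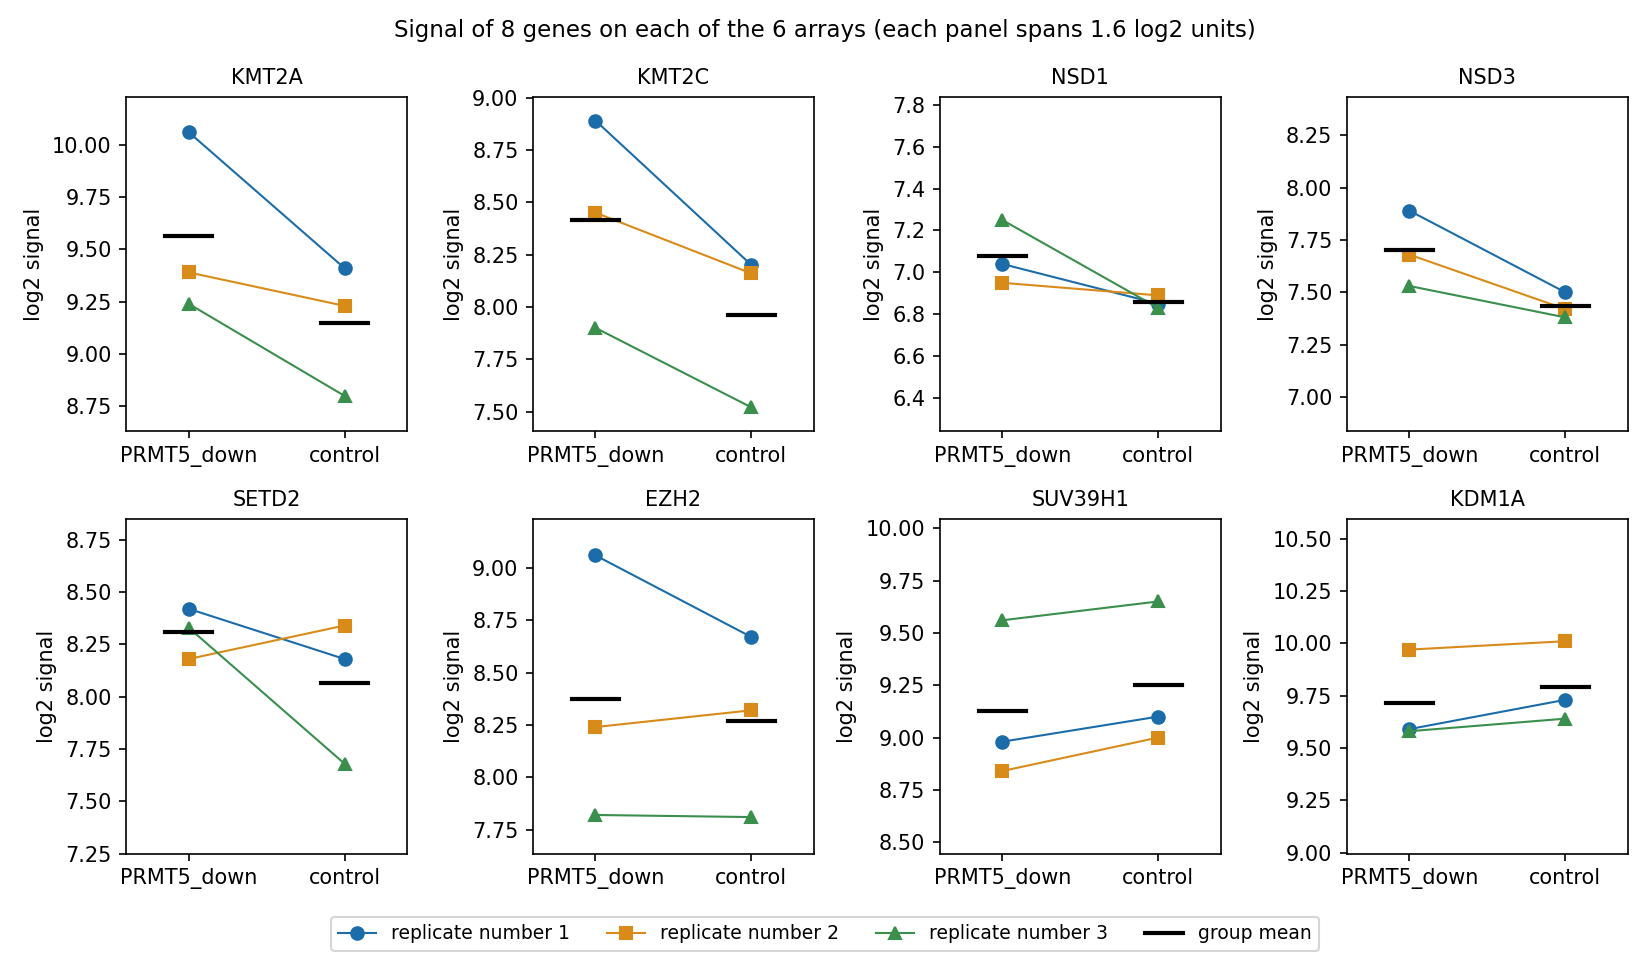
Log2 signals of 8 genes on each array, PRMT5_down at the left and control at the right of each panel, with lines joining arrays of the same replicate number and black bars for the group means. The lines of KMT2A, KMT2C, NSD1 and NSD3 all run downward to control, and in EZH2 the replicate numbers lie farther apart than the groups.

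By their brightest probe sets the 3 H3K36 methyltransferases were all higher on average. On those sets, 2 of them were the only members whose groups did not overlap. NSD3, which dimethylates H3K36, had signals of 7.89, 7.68 and 7.53 in PRMT5_down replicates 1, 2 and 3, against 7.5, 7.42 and 7.38 in control replicates 1, 2 and 3. Every PRMT5_down array lay above every control array, the closest being 0.03 apart. Its means were 7.70 ± 0.18 in PRMT5_down and 7.43 ± 0.06 in control (SD, n = 3 each), a difference of 0.27 (SE 0.11) with a limma adjusted p of 1 as planned and 0.56 with the replicate block (unadjusted p = 0.014). The other 3 NSD3 probe sets, also above background on every array, differed by -0.05, -0.13 and -0.03.

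NSD1, its paralog and the gene of Sotos syndrome, had signals of 7.04, 6.95 and 7.25 in PRMT5_down replicates 1, 2 and 3, against 6.85, 6.89 and 6.83 in control replicates 1, 2 and 3. The control arrays were within 0.06 of each other, and the lowest PRMT5_down array stood 0.06 above the highest of them. NSD1 averaged 7.08 ± 0.15 in PRMT5_down and 6.86 ± 0.03 in control (SD, n = 3 each), and the difference of 0.22 (SE 0.10) had a limma adjusted p of 1 as planned and 0.60 with the replicate block (unadjusted p = 0.046). Both genes had the smallest exact permutation p, 0.1, which 3 arrays against 3 always give without overlap, so it is no further result. Groups that did not overlap were found for 1.26% of all genes on the higher side and for 2.66% on the lower side, where 0 members stood.

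SETD2, the enzyme of H3K36 trimethylation, had signals of 8.42, 8.18 and 8.33 in PRMT5_down replicates 1, 2 and 3, against 8.18, 8.34 and 7.68 in control replicates 1, 2 and 3. On this brightest probe set the groups overlapped, since control replicate 2 lay above PRMT5_down replicate 2, while another SETD2 set, given below, kept them apart. The difference of 0.24 (SE 0.19) was 0.05 without control replicate 3, the lowest SETD2 array. NSD2, the third NSD gene and a marker of the translocation named above, differed by -0.06 (SE 0.08).

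The H3K9 methyltransferases, which serve heterochromatin and retroelement silencing, included 2 of the 4 lowest mean differences among the members. SETDB1, which works with TRIM28 at retroelements, had signals of 7.11, 7.64 and 7.60 in PRMT5_down replicates 1, 2 and 3, against 7.43, 7.63 and 7.70 in control replicates 1, 2 and 3. Only replicate number 1 stood clearly lower, and the difference of -0.14 (SE 0.17) turned to 0.03 without PRMT5_down replicate 1. SUV39H1, the trimethylase of pericentric heterochromatin, had signals of 8.98, 8.84 and 9.56 in PRMT5_down replicates 1, 2 and 3, against 9.10, 9.0 and 9.65 in control replicates 1, 2 and 3. It was lower in every replicate number, by 0.12, 0.16 and 0.09, but replicate 3 was the highest array of both groups and the groups overlapped. Its difference was -0.12 (SE 0.25, and 0.08 with the replicate block), with a limma adjusted p of 0.67 in the block fit. SUV39H2 and SETDB2, of the same families, differed by 0.07 (SE 0.12) and 0.05 (SE 0.27).

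EZH2 and EZH1, the alternative catalytic subunits of Polycomb repressive complex 2, which methylates H3K27, varied much more between replicate numbers than between groups. EZH2 had signals of 9.06, 8.24 and 7.82 in PRMT5_down replicates 1, 2 and 3, against 8.67, 8.32 and 7.81 in control replicates 1, 2 and 3. The order of the replicate numbers was the same in both groups, with means 1.05 apart, while the groups differed by 0.11 (SE 0.37). EZH1 had signals of 7.64, 7.42 and 6.81 in PRMT5_down replicates 1, 2 and 3, against 7.69, 7.62 and 6.46 in control replicates 1, 2 and 3. Replicate 3 was the lowest array in each group, and the difference of 0.03 (SE 0.39) was made of -0.05, -0.20 and 0.35.

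DOT1L, the methyltransferase of H3K79, differed by 0.07 (SE 0.11), with 0.27 in replicate number 1 and -0.05 and -0.02 in numbers 2 and 3. By their brightest probe sets the H4K20 enzymes were lower on average without passing. KMT5C, which trimethylates H4K20 at heterochromatin, had signals of 6.30, 6.88 and 6.51 in PRMT5_down replicates 1, 2 and 3, against 6.46, 6.81 and 6.76 in control replicates 1, 2 and 3. It was lower in replicate numbers 1 and 3 and higher in number 2, and the difference was -0.11 (SE 0.18). KMT5A, the monomethylase active in mitosis, differed by -0.04 (SE 0.21). KMT5B was lower by 0.28 in each of replicate numbers 1 and 2 and higher by 0.41 in number 3, and 4 of its 6 probe sets were higher on average, up to 0.26.

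The remaining SETD genes act mostly outside histones or on substrates that are not settled. SETD5, a chromatin regulator whose own activity is disputed, had signals of 7.07, 7.17 and 7.14 in PRMT5_down replicates 1, 2 and 3, against 7.19, 7.52 and 7.06 in control replicates 1, 2 and 3. Control replicate 2 was the only array that stood apart, and without it the difference of -0.13 (SE 0.13) became 0.00. SETD4 differed by 0.14 (SE 0.14) and SETD6, which methylates the NF-kB subunit RELA, by -0.07 (SE 0.11). SETD3, a histidine methyltransferase of actin, differed by 0.01 (SE 0.13) and SETD9 by -0.03 (SE 0.22). Of these 5 genes 2 were higher and 3 lower, with 0 called.

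The 18 demethylases had 11 genes higher and 7 lower, with differences from -0.08 to 0.21, a median of 0.03 and 0 called. KDM1A, the flavin-dependent eraser of H3K4 methylation in the CoREST complex, had signals of 9.59, 9.97 and 9.58 in PRMT5_down replicates 1, 2 and 3, against 9.73, 10.01 and 9.64 in control replicates 1, 2 and 3. It was slightly lower in each replicate number, by 0.14, 0.04 and 0.06, a difference of -0.08 (SE 0.16). KDM1B, its relative in oocytes and other cells, had signals of 8.36, 8.35 and 7.90 in PRMT5_down replicates 1, 2 and 3, against 8.17, 8.32 and 7.55 in control replicates 1, 2 and 3. It was higher in each number, by 0.19, 0.03 and 0.35, a difference of 0.19 (SE 0.24).

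Among the JmjC enzymes of H3K9 and H3K36, KDM4A, which removes trimethylation from both, had signals of 7.67, 7.26 and 7.54 in PRMT5_down replicates 1, 2 and 3, against 7.27, 7.24 and 7.36 in control replicates 1, 2 and 3. Its difference of 0.20 (SE 0.12) came mainly from replicate number 1, and PRMT5_down replicate 2 lay below control replicates 1 and 3. Its other probe set, also above background on every array, differed by -0.07, with -0.09, -0.18 and 0.06 in numbers 1, 2 and 3. KDM3A, an H3K9 demethylase induced by hypoxia, was higher by 0.13 and 0.52 in replicate numbers 1 and 3 and lower by 0.13 in number 2. KDM3B, KDM4B, KDM4C and KDM4D had mean differences from -0.06 to 0.11. KDM2A, an H3K36 demethylase that binds CpG islands, differed by 0.16 (SE 0.17), with 0.34, 0.11 and 0.02 in numbers 1, 2 and 3. KDM2B, which brings a Polycomb complex to CpG islands, differed by -0.03 (SE 0.08), and KDM7A by 0.02 (SE 0.31).

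The KDM5 enzymes remove H3K4 methylation and so act against the KMT2 complexes. KDM5B had signals of 8.13, 7.75 and 8.13 in PRMT5_down replicates 1, 2 and 3, against 8.03, 7.67 and 7.82 in control replicates 1, 2 and 3. It was higher in every replicate number, by 0.10, 0.08 and 0.31, with a difference of 0.16 (SE 0.15) and overlapping groups. KDM5A was higher by 0.28 and 0.42 in numbers 1 and 3 and lower by 0.07 in number 2, while KDM5C, the X-linked member, differed by -0.04 (SE 0.20). KDM6A, the H3K27 demethylase often lost in myeloma, had signals of 7.80, 7.43 and 7.15 in PRMT5_down replicates 1, 2 and 3, against 7.55, 7.46 and 6.87 in control replicates 1, 2 and 3. Replicate 3 was the lowest in both groups, and the difference was 0.17 (SE 0.24). KDM6B differed by 0.01 (SE 0.20), with 0.39, -0.09 and -0.27 in numbers 1, 2 and 3.

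As a group, 27 of the 44 members were higher in PRMT5_down and 17 lower, beside 43.3% of all genes higher. The median difference of the members was 0.03, beside -0.02 for all genes, and the differences ran from -0.14 to 0.45. Among the brighter 50% of genes, which hold 42 members, the medians were 0.04 for members and 0.01 for all genes, both above 0. Without control replicate 3 the count of higher members was 18 and the median -0.01, and with a whole replicate number left out under the block the count was 23, 27 and 24. In the histogram, 9 members or 20.5% lay between 0.15 and 0.25, where 7.19% of all genes lay. This range was named after the shares were seen. Below -0.15 lay 0 members, while 8.55% of all genes lay between -0.25 and -0.15 and 1.79% between -0.35 and -0.25. All genes here include the dimmer 50%, and these shares were not computed among the brighter 50%.

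**Figure D3:**
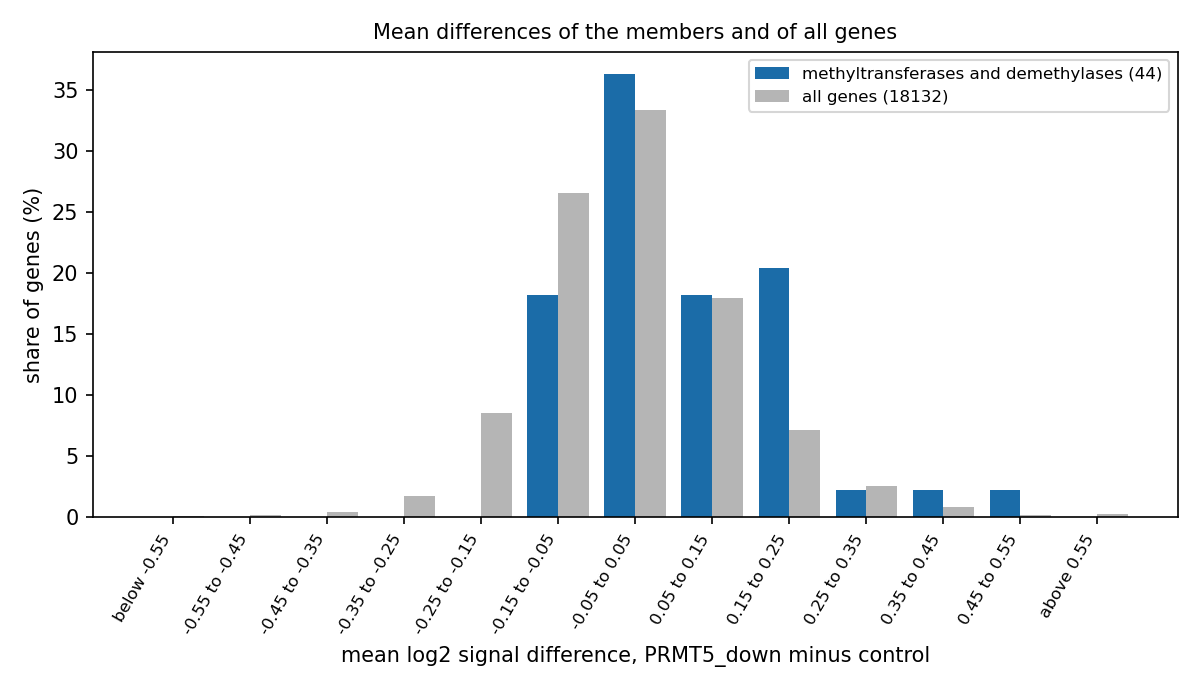
Share of genes in each range of the mean log2 difference, PRMT5_down minus control, for the 44 members (blue) and all 18132 genes (grey). Members lie between -0.15 and 0.55, with 36.4% of them between -0.05 and 0.05 against 33.4% of all genes.

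The size of the differences depended on the replicate number. Members at least 0.2 higher in PRMT5_down numbered 15, 2 and 14 in replicate numbers 1, 2 and 3, and over all genes such differences made up 13.0%, 7.10% and 17.3%. Members at least 0.2 lower numbered 2, 5 and 3 (4.55%, 11.4% and 6.82%), and over all genes such differences made up 18.5%, 6.66% and 18.3%. Replicate number 2 was thus the one with few members at least 0.2 higher, and over all genes such differences were rarest there in both directions. By any amount, 19 members were higher in it, beside 25 and 27 in numbers 1 and 3. The median of the members was -0.04 in number 2, beside 0.11 and 0.04 in numbers 1 and 3. In the same numbers the PRMT5 difference was -1.30, -0.70 and -0.93, and the actin 3′ minus 5′ difference was 0.13, 0.00 and 0.11. The GAPDH 3′ minus 5′ difference was -0.02, -0.04 and 0.01. The part of PRMT5, actin or GAPDH differences in these counts was not tested. The difference went upward in all 3 numbers for 8 members, beside 11.7% of all genes, and downward in all 3 for 4, beside 15.2%. The 8 were KMT2A, KMT2C, NSD1, NSD3, KDM1B, KDM2A, KDM4A and KDM5B, and the 4 were SUV39H1, KDM1A, SETD9 and KDM5C. For 41 of the 44 members the means of the replicate numbers spanned more than the difference between groups, as for 89.3% of all genes. The exceptions were NSD1, NSD3 and KDM4E, the last not above background.

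Most members were read by several probe sets, which gave a second view of the same arrays. The 44 genes had 152 probe sets of their own, and 39 had more than 1. All of a gene's sets were higher for 18 of these 39 genes, all lower for 7, and divided for 14. For KMT2A, all 8 sets were higher, from 0.18 to 0.47, and 7 of them were higher in every replicate number. All 5 sets of KMT2C were higher, from 0.25 to 0.46, each in all 3 replicate numbers. Another 4 probe sets that KMT2C shares with BAGE genes or other loci, near-copies of part of KMT2C, differed by 0.13 to 0.45, and 3 of these 4 were lower in replicate number 2, by 0.02 to 0.05, so cross-hybridisation leaves some uncertainty in its signal. KMT2E had 9 of 9 sets higher, from 0.09 to 0.27, and KDM5A 7 of 7, from 0.08 to 0.27. SETD2 had 3 of 3 higher, from 0.20 to 0.64. Its dimmest set, above background on all 6 arrays, differed by 0.64, with 0.85, 0.41 and 0.67 in replicate numbers 1, 2 and 3. It read 7.17, 6.95 and 6.95 in PRMT5_down replicates 1, 2 and 3 and 6.32, 6.54 and 6.28 in control replicates 1, 2 and 3, without overlap. Also without overlap were KMT2A sets at 0.36 and 0.41, an NSD1 set at 0.26 and, on the lower side, an NSD3 set at -0.13. None of these was the brightest of its gene, and the share of all probe sets without overlap was not computed.

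NSD3 and NSD1, whose brightest probe sets separated the groups, were less even. Of the 4 NSD3 sets, all above background on all 6 arrays, only the brightest was higher, at 0.27, and the other 3 differed by -0.03 to -0.13. NSD1 had 6 of 8 sets higher and 2 lower, from -0.15 to 0.26, with only 3 sets above background on all 6 arrays. EZH2 had 2 sets higher and 1, above background on no array, at -0.35, and SUV39H1 had 4 of 5 lower, from -0.21 to 0.04. On the lower side, all 5 sets of KMT5A and all 5 of SETD6 were lower, from -0.12 to -0.01 and from -0.21 to -0.03. Probe sets of 1 gene share the same RNA on the same arrays and are not replicates.

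**Figure D4:**
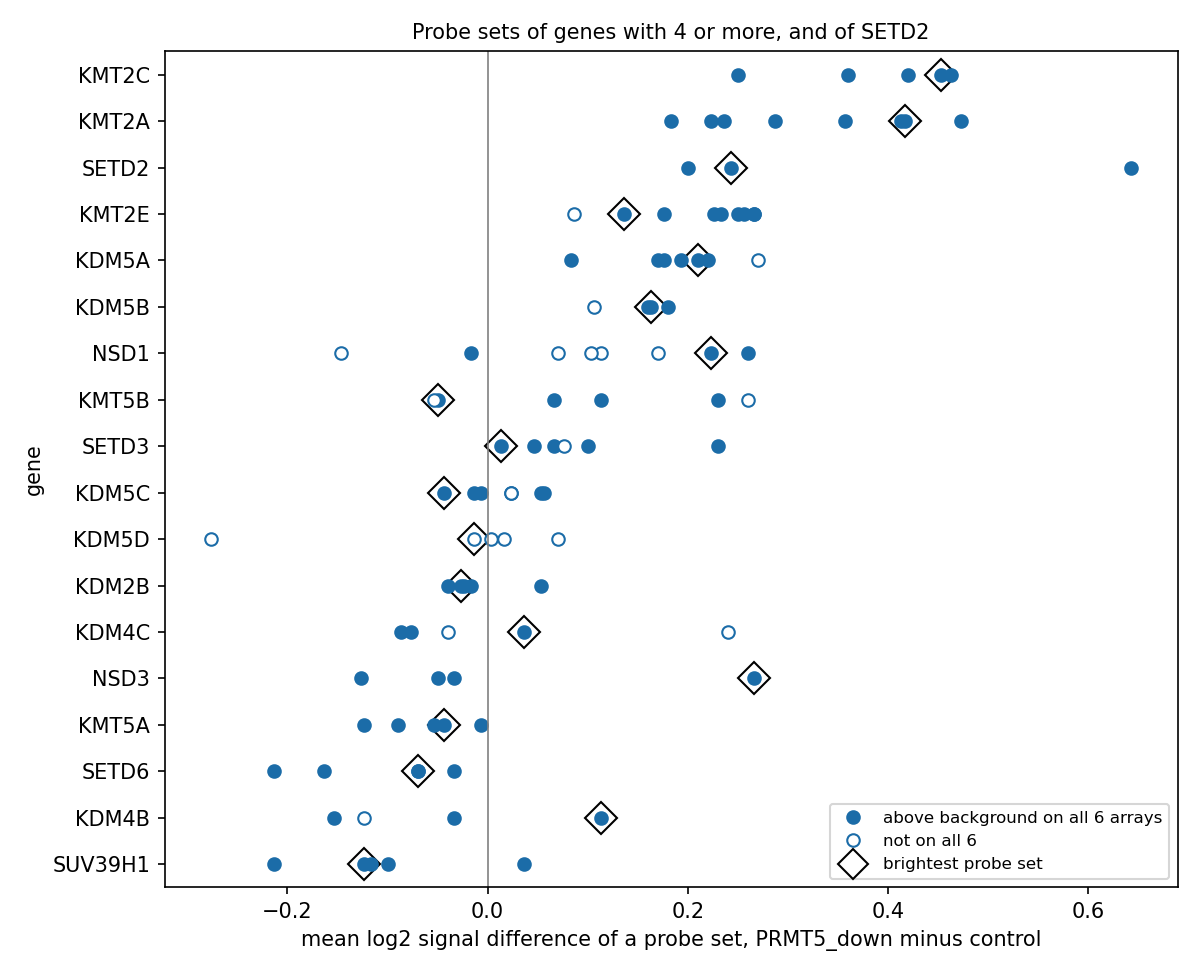
Mean log2 difference, PRMT5_down minus control, of each probe set (points) for genes with 4 or more sets and for SETD2, filled where the set was above background on all 6 arrays and ringed by a diamond where it is the brightest. All points of KMT2C, KMT2A, KMT2E and KDM5A lie right of 0, and for NSD3 only the brightest does.

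Genes outside the rule that are linked to these enzymes were counted by list. In each list limma called 0, with 0 at an unadjusted p under 0.05. With the replicate block, 3 of the genes listed with DOT1L were higher at an unadjusted p under 0.05, among them MLLT11, a fusion partner of KMT2A. Such genes numbered 2 higher among the KDM1A partners and 1 higher among the H3K9 partners. They numbered 1 higher and 1 lower in each of the COMPASS and other JmjC lists. The other lysine methyltransferases had 1 lower and the Polycomb subunits 0. Over all genes 4.44% were such on the higher side and 3.81% on the lower. Of 11 Polycomb repressive complex 2 subunits, 8 were higher and 3 lower, and the accessory subunit MTF2 differed by 0.19 (SE 0.20) and the core subunit SUZ12 by 0.12 (SE 0.26). The 12 COMPASS subunits divided evenly, 6 higher and 6 lower. WDR5, the scaffold shared by the KMT2 complexes, was lower in every replicate number, with a difference of -0.22 (SE 0.13). PAXIP1, a partner particular to the KMT2C and KMT2D complexes, was higher in each number, with 0.28 (SE 0.18). Of 11 measured KDM1A partners 4 were higher and 7 lower, with the erythroid repressor GFI1B at 0.27 (SE 0.21) and RCOR2 at -0.12 (SE 0.11).

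Among 9 partners and readers of H3K9 methylation 7 were higher and 2 lower, with the HUSH subunit TASOR at 0.19 (SE 0.16) and the SETDB1 partner ATF7IP at 0.26 (SE 0.29). The 7 genes listed with DOT1L had 5 higher and 2 lower. AFF1, a fusion partner of KMT2A, stood at 0.33 (SE 0.17), and MLLT11, also a KMT2A fusion partner, at 0.37 (SE 0.33). Of 14 other lysine methyltransferases 3 were higher and 11 lower, with PRDM2 at 0.18 (SE 0.13) and SMYD1, dimmer than background throughout, at -0.20 (SE 0.13). The 13 other JmjC proteins had 4 higher and 9 lower, with JMJD1C at 0.29 (SE 0.18) and JMJD6 at 0.23 (SE 0.18). Named genes of these lists at an unadjusted limma p under 0.05 with the replicate block had smaller SE there. It was 0.085 for WDR5, 0.090 for PAXIP1, 0.10 for GFI1B, 0.11 for ATF7IP, 0.11 for AFF1, 0.13 for MLLT11 and 0.096 for JMJD1C. The medians of these lists lay between -0.08 and 0.12, beside -0.02 for all genes.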

How the data were processed

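RNA of 6 cell samples was hybridised to 1 Affymetrix array each. The authors deposited a log2 signal for each probe set, computed by RMA according to the submitters' processing notes, with no software version or chip definition named in the sources used here. RMA gives all arrays nearly 1 distribution, which hides any shift common to most transcripts. Of 49372 probe sets, 79 were controls, 44988 had 1 symbol, 1832 several and 2473 were unnamed here; names come from GEO's platform annotation, with 44961 matched to RefSeq by gene identifier. The brightest single-symbol probe set stood for each of 18132 genes. On each array, 333 olfactory receptor genes set background at their 95th percentile. PRMT5_down minus control was fitted by lmFit and eBayes of limma 3.58.1 (R 4.3.3), adjusted over all genes by Benjamini-Hochberg at 0.05, and tested on simulated data. Number of arrays limits precision. For replicate numbers 1, 2 and 3, the deviations of both arrays from their group means had r = 0.82, 0.72 and 0.79, each above the minimum of 0.1. By that check, from the data and not the labels, the numbers pair the arrays; the planned fit stayed without the block, and blocked values are printed where they moved a count. Members, lists and the rule for named genes (the members spelled out by name and KDM1A, the smallest p of each role group, groups that do not overlap, an unadjusted p under 0.05 in either fit, the 4 highest and 4 lowest differences, 2 per partner list) were chosen with earlier results of these data known; other genes, such as NSD2 and the remaining members, were named after their values were seen. Alternatives were the block, filters, probe set rules, normalization, variance models and left-out arrays.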

Additional observations from a re-analysis of the deposited data

How the results depend on the processing

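No member was called under any setting run. The median of the members was 0.03 in the planned fit. With 1 array left out it ran from -0.01 (without control replicate 3) to 0.10 (without PRMT5_down replicate 3), so its sign was not stable. Only 3 arrays per group limit every difference. Genes called over all numbered 0, except 3 with the replicate block, lowest 50% left out, and 3 with the replicate block, trend and robust, where PRMT5 was called at -0.98 (limma adjusted p = 0.039 and 0.029); the cause was not tested. PRMT5 ran from -1.19 to -0.68 with 1 array left out.

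The count of members with p below 0.05 before adjustment was 0 in the planned fit (0.822% of all genes). It was 1 with the mean of probe sets (0.877%) and 1 with the most variable probe set (0.695%). With the replicate block it was 4 (8.25%). Trend and robust settings under the block gave 3 (8.52%). Leaving out the lowest 50% under the block also gave 3 (9.73% of the genes kept). Under the block the count was 1, 7 and 4 without replicate 1, 2 or 3 (2.37%, 9.56% and 3.42% of all genes). In the fit without the block, the count was 2 without PRMT5_down replicate 2 (1.27%) or 3 (1.06%). It was 1 without control replicate 2 (1.57%). It was 0 without PRMT5_down replicate 1 (0.507%), control replicate 1 (0.662%) or control replicate 3 (0.59%). Of 21 named members, 7 kept their direction under every setting run: KDM4A, KDM5B, KMT2A, KMT2C, NSD1, SETD2 and SETD4. With 1 array left out their sizes still ran from 0.11 to 0.32 for KDM4A, 0.078 to 0.29 for KDM5B, 0.17 to 0.58 for KMT2A, 0.22 to 0.71 for KMT2C, 0.14 to 0.29 for NSD1, 0.05 to 0.38 for SETD2 and 0.03 to 0.20 for SETD4, and the mean of probe sets gave 0.065 for KDM4A and 0.097 for NSD1. The other 14 turned under at least 1 setting, none of them called there. For 9 of these (KDM1A, KDM1B, KDM2A, KDM6A, KMT5C, SETD5, SETDB1, SUV39H1 and SUV39H2) this was only when 1 array was left out. All 9 kept their direction with a whole replicate number left out under the block. The other 5 turned under another setting, and the cause was not tested for any of the 14. With the most variable probe set EZH2 stood at -0.35, from a set above background on no array, and NSD3 at -0.033, and with the mean of probe sets EZH2 at -0.036. With the replicate block, DOT1L and EZH2 stood at -0.035 each without replicate 1, SETDB2 at -0.005 without replicate 2 and EZH1 at -0.13 without replicate 3. With 1 array left out, the differences ran from -0.37 to 0.27 for EZH1, from -0.24 to 0.38 for EZH2, from -0.21 to 0.028 for KDM1A, from -0.042 to 0.34 for KDM1B, from -0.0067 to 0.25 for KDM2A, from -0.045 to 0.32 for KDM6A, from -0.27 to 0.018 for KMT5C, from -0.23 to 0.0017 for SETD5, from -0.23 to 0.033 for SETDB1, from -0.14 to 0.27 for SETDB2, from -0.34 to 0.077 for SUV39H1 and from -0.0033 to 0.17 for SUV39H2. The symbol as printed gave the same 44 members.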
